A study of Mus musculus with 24 samples.

Results

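The regions described here are stretches of distal chromatin that carried the enhancer mark H3K4me1 before stimulation and acquired H3K27ac when mouse macrophages were stimulated with LPS. LPS, or lipopolysaccharide, is an outer membrane molecule of bacteria that macrophages sense through a Toll-like receptor. They are H3K27ac peaks of the empty vector library after 4 h of LPS, chosen by their H3K27ac, H3K4me3 and H3K4me1 peak calls on 4 conditions. Each overlapped an H3K27ac peak of the Wdr82 knockdown library after LPS, overlapped no H3K27ac peak of either untreated library, lay 2500 bp or more from every H3K4me3 peak, and overlapped an H3K4me1 peak of the untreated scrambled control. Of the 28986 H3K27ac peaks in that list, 25086 were shared with the knockdown after LPS, 5427 of these had no untreated peak, 4625 of those were distal to H3K4me3, and 1679 also had prior H3K4me1. These 1679 premarked gained regions, the members, were 5.79% of the list, 10.5% of its 15919 distal peaks and 36.3% of the 4625 distal gains.

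ChIP-seq, the sequencing of DNA recovered with antibodies against chromatin proteins, was carried out on bone marrow-derived macrophages of FVB/Hsd mice, grown from marrow cells for 7 days. All cells were infected with a retrovirus and selected with puromycin. They carried a hairpin against Wdr82 (named sh1137, called shWdr82 here), the empty vector LMP, or a scrambled hairpin, and were untreated or given LPS at 10 ng/ml. The 6 antibodies by 2 vectors by 2 treatments gave 24 libraries with 1 library in each group. H3K27ac and H3K4me3 were profiled with LMP as control and 4 h of LPS, and the sample titles give a scrambled control and 45 min of LPS for H3K36me3, H3K4me1, RNA polymerase II of any form (total Pol II) and its serine 2 phosphorylated form (Ser2P), although the protocol text names 4 h alone. The knockdown rests on 1 hairpin in primary cells, and the peak lists hold no measure of Wdr82 RNA or protein, so its efficiency was not analysed here.

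H3K4me1 marks enhancers and can be present before they are active, while H3K27ac marks active enhancers and promoters and H3K4me3 marks promoters. In macrophages, inflammatory signals add acetylation at many sites that lineage factors have already opened and monomethylated. Elongating Pol II carries Ser2P, H3K36me3 covers transcribed gene bodies, and active enhancers are often transcribed as well. WDR82 takes part in complexes that methylate H3K4 through SET1 enzymes, and in a phosphatase complex that acts on Pol II and its termination.

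The 24 lists held 756484 peaks, and read depth is unknown. Total Pol II peaks numbered 32385 in the untreated and 21891 in the LPS scrambled library, and 28497 and 22307 in the knockdown. The Ser2P lists held 14420 to 16744 peaks, but the knockdown LPS list covered 60.6 Mb and the other 3 covered 43.0 to 46.0 Mb. H3K4me1 lists were closer in size, with 60602 to 65149 peaks. With 1 library in each group no test was possible, no p-value is given, and the spread between cultures is unknown. The intervals given are 95% intervals for the share of regions with a peak, exact (Clopper-Pearson) for a share and Wald for a difference. They cover counting error only and treat neighbouring regions as independent.

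The members were mostly of moderate size. Their width ran from 571 to 44615 bp with a median of 2772 bp and quartiles of 1866 and 4348 bp. The median H3K27ac score, which the authors' peak caller gives each peak, was 300 in the empty vector LPS list and 251 in the knockdown LPS list. In 83 members (4.94%) the score stood at 3100 or more in both lists, and in 162 it was under 100 in both. Among the 1415 members that matched a knockdown peak 1 to 1, the knockdown peak was narrower by a median of -0.140 on the log2 scale, with quartiles of -0.42 and 0.05. The whole LPS lists differed in the same direction. Their median widths were 2748 bp in the empty vector and 2573 bp in the knockdown, and their median scores 400.2 and 355.4. Scores and borders were values of the H3K27ac lists that chose the members and are given as a description.

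The distance to the nearest H3K4me3 peak had a median of 25773 bp and quartiles of 10980 and 57103 bp. The members nearest to the limit lay at 2503, 2511 and 2551 bp, and the nearest peaks left out by it lay at 2497, 2482 and 2479 bp. In all, 417 peaks met every other condition but lay nearer than 2500 bp, of which 271 overlapped an H3K4me3 peak. Absence of an untreated H3K27ac peak was also a matter of position. The nearest untreated H3K27ac peak was at a median of 12552 bp, and 752 members (44.8%) had one within 10000 bp. In 93 members (5.54%) it lay within 1000 bp, and the closest pairs were 9, 10 and 12 bp apart, so some members bordered a stretch that was already acetylated.

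Members were found on all 20 chromosomes with peaks, from 44 on chromosome X to 133 on chromosome 2. As a share of the distal LPS H3K27ac peaks of a chromosome they ran from 8.65% on chromosome 1 to 14.1% on chromosome 16. Joining members within 50000 bp of each other gave 1369 stretches, of which 1143 held a single member. The other 226 stretches held 536 members (31.9%). The stretch with most members, chr15:25475246-25562936 (mm9), held 6, and 5 further stretches held 5.

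H3K4me1 was the mark that defined the members in 1 library, and the other 3 H3K4me1 libraries show how far that call was repeated. A peak was present at 1478 members (88.0%) in the scrambled control after LPS, at 1372 (81.7%, interval 79.8 to 83.5) in the untreated knockdown and at 1420 (84.6%) in the knockdown after LPS. The lower shares in the 3 libraries are partly fixed by the choice, since every member has the mark in the untreated scrambled library. Against a background of 91.6% among all distal LPS H3K27ac peaks with that mark, the members' 81.7% in the untreated knockdown was low. Regions that had H3K27ac in all 4 libraries, here called kept regions (6876 with prior H3K4me1), reached 95.2% in the same library, 13.5 points above the members (interval of members minus kept -15.4 to -11.6). Premarked sites that had no H3K27ac in any library (19718, median width 1377 bp) reached 74.0%, which was 7.68 points (5.73 to 9.63) below the members. These sites are H3K4me1 peaks, while the members are H3K27ac peaks. Counted over H3K4me1 peaks alone, premarked sites that gained H3K27ac in both LPS libraries reached 78.9%, a gap of 4.85 points (3.03 to 6.66).

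All 4 H3K4me1 libraries held a peak at 1215 members (72.4%). At 76 members (4.53%, against a background of 1.54%) the untreated scrambled peak stood alone. Between the libraries that the choice did not use, the knockdown held H3K4me1 at 2.86 points more members after LPS than before (1.02 to 4.70), with 149 members that had it after LPS alone and 101 before LPS alone (8.87% and 6.02%, background 5.48% and 3.93% over all distal peaks, of which 67.0% had the prior mark). After LPS the knockdown share was lower than the scrambled share by -3.45 points (-5.28 to -1.63), with 94 members in the knockdown alone and 152 in the control alone (5.60% and 9.05%, background 3.92% and 5.64%). The lower share was also seen at the kept regions, where the difference was -2.89 points (-3.44 to -2.35). Members and kept regions were both chosen by a peak of the untreated scrambled library. At the distal gains without that peak the sign was opposite, at 2.68 points (1.43 to 3.93). Over all distal LPS H3K27ac peaks it was -1.72 points (-2.20 to -1.24). The difference thus varied with how the regions were chosen, and its cause was not tested.

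H3K4me1 peaks were more frequent at the centre of the members than away from it. This is partly fixed by the choice, since every member overlaps a peak of the untreated scrambled library. The point at the centre of a member lay in a peak in 77.1% of members in the untreated scrambled library, 71.0% after LPS, 63.9% in the untreated knockdown and 67.7% in the knockdown after LPS. At 2000 bp from the centre, averaged over both sides, these shares were 19.3%, 18.9%, 17.4% and 20.4%, and at 5000 bp they were 13.9% to 15.2%. On average an H3K4me1 peak of the untreated scrambled library covered 61.0% of a member's length, and 172 members (10.2%) lay wholly inside such peaks. Most members therefore extended beyond the prior mark. The median H3K4me1 score at members was 167 in the untreated scrambled library, against 186 over that whole list. In the other libraries the median covers only the members with a peak there. It was 218 against 190 in the scrambled library after LPS (1478 members) and 163 against 153 in the untreated knockdown (1372 members). In the knockdown after LPS it was 199 against 165 (1420 members). Members without a peak are left out of these medians, so they cannot be compared with the 167 of the library that chose the members.

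**Figure D1:**
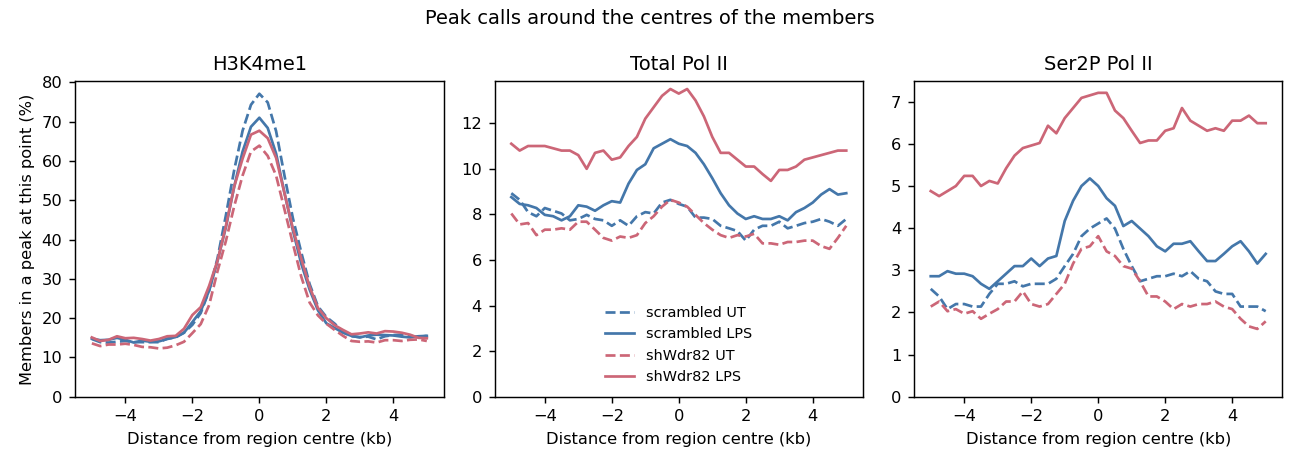
Share of the 1679 members (vertical axis, %) that lie in a peak at each distance from the member's centre (horizontal axis, kb), for H3K4me1, total Pol II and Ser2P in the 4 libraries of each antibody; blue is scrambled, red is shWdr82, dashed is untreated, solid is LPS, and the vertical scales differ. H3K4me1 falls from 63.9 to 77.1% at the centre to 13.9 to 15.2% at 5 kb, which is partly fixed by the choice of members. Total Pol II after LPS is highest near the centre in both vectors, and the knockdown LPS line lies above the others across the whole window for both polymerase antibodies.

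Total Pol II, which the choice of members did not use, was present at a minority of them and more often after LPS. In the scrambled control a total Pol II peak overlapped 189 members (11.3%) before LPS and 229 (13.6%) after 45 min of LPS. In the knockdown it overlapped 172 (10.2%) before and 282 (16.8%) after. The highest share was thus that of the knockdown after LPS, and the untreated libraries had the lowest shares. Over all distal LPS H3K27ac peaks the same shares were 21.6% and 17.3% in the control and 18.4% and 19.4% in the knockdown, so the members lay below them in all 4 libraries. Over those peaks the LPS difference was -4.30 points (-4.97 to -3.62) in the control and 1.02 points (0.315 to 1.72) in the knockdown.
With LPS the scrambled share was higher by 2.38 points (0.623 to 4.14). This balance came from 134 members with Pol II after LPS alone and 94 with it before LPS alone, or 7.98% and 5.60% of members, where all distal LPS H3K27ac peaks gave 7.47% and 11.8%. In the knockdown the share was higher by 6.55 points (4.67 to 8.44), from 189 members after LPS alone and 79 before LPS alone (11.3% and 4.71%, background 10.7% and 9.72%). The share of members with Pol II after LPS alone was thus near the background in both vectors, and the share with it before LPS alone was lower than the background. Fewer members had Pol II before LPS at all (11.3% and 10.2%, background 21.6% and 18.4%), so fewer could have it before LPS alone. The higher shares after LPS were found although the LPS total Pol II lists were the shorter ones in both vectors. Taking the same number of highest-scoring peaks from each list of an antibody also changed the members, to 2016. The differences were then 5.95 points (4.41 to 7.50) and 8.93 points (7.23 to 10.6). With the total Pol II lists alone cut, chosen after seeing the data, the 1679 members gave 5.72 points (4.04 to 7.40) and 8.58 points (6.75 to 10.4). With the lists as deposited, the LPS difference was larger in the knockdown than in the control by 4.17 points (2.23 to 6.11). The same value was 5.31 points (4.64 to 5.99) over all distal peaks and 7.21 points (6.01 to 8.42) at regions that had H3K27ac in all 4 libraries, so a larger LPS difference in the knockdown was not particular to the members.

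At kept regions the total Pol II share was lower after LPS in the lists as deposited, where the LPS lists are the shorter ones. It went from 35.8% to 26.2% in the control and from 30.5% to 28.1% in the knockdown. The LPS difference at members exceeded that at kept regions, with an interval of 9.79 to 14.1 points in the control and of 6.63 to 11.2 points in the knockdown. Members did not have Pol II after LPS alone more often than kept regions. In the control the shares were 7.98% of members and 10.3% of kept regions. In the knockdown the counts were 189 of 1679 and 960 of 6876. Before LPS alone, the control shares were 5.60% of members and 19.8% of kept regions. More kept regions had Pol II before LPS, so more could have it before LPS alone. The total Pol II share also went down at premarked regions that lost H3K27ac with LPS (4476, from the untreated lists), from 16.2% to 6.75% and from 13.3% to 8.33%. The members exceeded them by 11.8 points (9.73 to 13.9) and 11.5 points (9.33 to 13.7). With the 4 total Pol II lists alone cut to their 21891 highest-scoring peaks each, an alternative chosen after seeing the data, the LPS difference at kept regions was 1.19 points (-0.0144 to 2.40) in the control and 4.46 points (3.22 to 5.71) in the knockdown, so its direction depended on the length of the lists. At lost regions it was still below 0, at -3.37 points (-4.32 to -2.42) and -1.47 points (-2.49 to -0.458), and over all distal peaks it was 2.15 and 5.11 points. At members it was then 5.72 and 8.58 points. These exceeded the kept regions by 4.53 points (2.46 to 6.59) in the control and 4.11 points (1.90 to 6.32) in the knockdown, and the lost regions by 9.09 points (7.16 to 11.0) and 10.1 points (7.96 to 12.1).

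The kept regions are wider (median 3648 bp) and the lost ones narrower (median 1882 bp) than the members (median 2772 bp), and a wider region has more room to overlap a peak. The premarked sites without H3K27ac are narrower still (median 1377 bp), so differences between them and the members include this gap in width.

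The regions most like the members were the 2946 distal gains with no H3K4me1 peak in the untreated scrambled library, which have a median width of 2246 bp. Total Pol II overlapped 7.81% of them before and 8.52% after LPS in the control, and 6.82% and 10.3% in the knockdown. After LPS the members' share was higher by 5.12 points (3.19 to 7.05) in the control and by 6.51 points (4.41 to 8.61) in the knockdown, and before LPS it was already higher by 3.45 points (1.65 to 5.25) and 3.42 points (1.71 to 5.13). With the lists as deposited, the LPS difference itself was larger at members by 3.09 points (0.905 to 5.27) in the knockdown, while in the control the interval of 1.67 points (-0.324 to 3.66) included 0. With the total Pol II lists cut to equal length as above, it was larger by 3.27 points (1.35 to 5.19) in the control and 3.99 points (1.87 to 6.12) in the knockdown. Whether the control interval included 0 thus depended on the length of the lists.

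**Figure D2:**
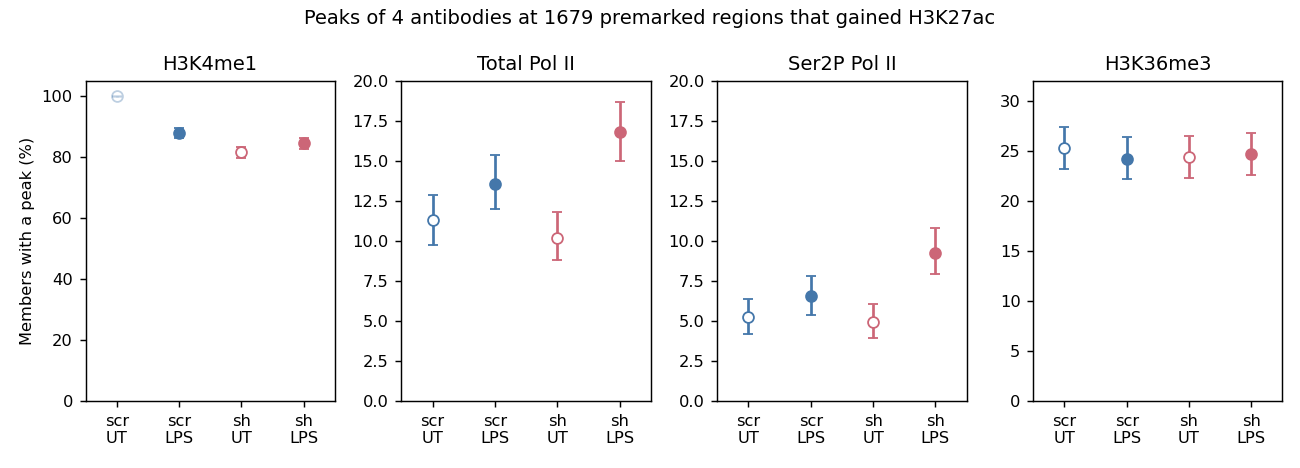
Share of the 1679 members that overlap a peak (vertical axis, %) in the scrambled (blue) and shWdr82 (red) libraries, untreated (open) and after LPS (filled), with exact 95% intervals that cover counting error only; the vertical scales differ, and the pale H3K4me1 point is 100% by the choice of members. Total Pol II runs from 10.2 to 16.8% and Ser2P from 4.94 to 9.29%, both highest in the knockdown after LPS, while H3K36me3 stays between 24.2 and 25.3%.

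Between vectors, total Pol II overlapped fewer members in the knockdown than in the control before LPS, by -1.01 points with an interval that included 0 (-2.20 to 0.171), from 43 members in the knockdown alone and 60 in the control alone (2.56% and 3.57%, background 3.20% and 6.35%). After LPS it overlapped more, by 3.16 points (1.65 to 4.67), from 111 members with Pol II in the knockdown alone and 58 in the control alone (6.61% and 3.45%, background 6.14% and 3.97%). The shares after LPS were close to the background, and before LPS the share in the control alone was lower than it. The whole Pol II share of members in that untreated control was lower too (11.3%, background 21.6%). The same difference was 1.91 points at kept regions, and the members' excess over it of 1.25 points had an interval that included 0 (-0.479 to 2.98). Over the premarked sites without H3K27ac the excess was 3.01 points (1.47 to 4.55).

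Read by pattern, 1245 members (74.2%) lacked total Pol II in all 4 libraries and 64 (3.81%) had a peak in all 4, against a background of 64.7% and 6.36%. A peak in both LPS libraries and neither untreated one was found at 83 members (4.94%, background 4.76%), and the reverse at 40 (2.38%, background 6.31%). The knockdown LPS library alone held a peak at 86 members (5.12%, background 4.08%), the scrambled LPS library alone at 33 (1.97%, background 1.70%), both near their background. Patterns that followed the vector regardless of treatment were rare, with 6 members in both knockdown libraries alone and 5 in both scrambled libraries alone (0.357% and 0.298%, background 0.440% and 0.609%).

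Ser2P showed a similar order at lower levels. It overlapped 88 members (5.24%) in the untreated control, 110 (6.55%) in the control after LPS, 83 (4.94%) in the untreated knockdown and 156 (9.29%) in the knockdown after LPS. All distal LPS H3K27ac peaks gave 5.53%, 6.41%, 5.66% and 10.4% in the same order, so the members' shares were near the background in each library. The LPS difference was 1.31 points (0.205 to 2.42) in the control, from 56 members after LPS alone and 34 before LPS alone (3.34% and 2.03%, background 2.99% and 2.12%). In the knockdown it was 4.35 points (3.04 to 5.66), from 101 and 28 members (6.02% and 1.67%, background 6.75% and 1.99%). The control difference was small, and its interval included 0 when peaks were limited to a score of at least 100 (0.736 points, -0.264 to 1.74) or members to 1000 bp about the centre (0.953 points, -0.116 to 2.02).

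After LPS, Ser2P overlapped 2.74 points more members in the knockdown than in the control (1.65 to 3.83), and over all distal peaks the difference was 4.01 points (3.62 to 4.40). It was in the knockdown alone at 67 members and in the control alone at 21, or 3.99% and 1.25%, where the background was 5.28% and 1.27%. Before LPS the difference was -0.298 points (-1.05 to 0.450), from 18 and 23 members (1.07% and 1.37%, background 1.68% and 1.55%). The LPS differences of the vectors differed by 3.04 points (1.75 to 4.32) at members, by 3.88 points (3.41 to 4.35) over all distal peaks and by 4.01 points at kept regions. The kept regions showed a larger difference after LPS, 4.67 points, and the members fell short of it by -1.93 points (-3.19 to -0.665). A higher Ser2P share in the knockdown after LPS was thus not particular to the members. The knockdown LPS Ser2P list also covers more of the genome than the others, as given above. With every Ser2P peak narrowed about its centre until all 4 lists covered the length of the one that covered least, the difference was 2.32 points (1.23 to 3.42).

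The surroundings of the members moved with the members in the knockdown. At 5000 bp from the centre, averaged over both sides, total Pol II covered 8.37% and 8.84% of positions in the control before and after LPS, and 7.77% and 10.9% in the knockdown. At the centre the same values were 8.46% and 11.1%, and 8.52% and 13.3%. In the control the higher share after LPS was thus seen at the centre and hardly at 5000 bp, and in the knockdown it was seen at both. For Ser2P the shares at 5000 bp were 2.29%, 3.12%, 1.97% and 5.69%, and at the centre 4.11%, 5.00%, 3.81% and 7.21%, each in the order control untreated, control LPS, knockdown untreated, knockdown LPS. The gap between the vectors after LPS was about as wide at 5000 bp as at the centre. Of members with a total Pol II peak, 8.99% and 8.14% before LPS and 14.8% and 14.9% after LPS had one whose peak also reached an H3K4me3 peak. The centre of a total Pol II peak lay inside 55.0% and 58.7% of them before LPS and 59.0% and 59.9% after LPS. At the others the overlapping peak was centred outside the member.

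H3K36me3, the gene body mark, overlapped 424 members (25.3%, 23.2 to 27.4) in the untreated control, 407 (24.2%) in the control after LPS, 409 (24.4%) in the untreated knockdown and 414 (24.7%) in the knockdown after LPS. The intervals of the 4 shares overlapped. With LPS, H3K36me3 was found at 40 members after LPS alone and 57 before LPS alone in the control (2.38% and 3.39%, background 1.95% and 3.22%), and at 46 and 41 in the knockdown (2.74% and 2.44%, background 2.30% and 2.22%). Between vectors it was found at 43 members in the knockdown alone and 58 in the control alone before LPS (2.56% and 3.45%, background 2.67% and 3.30%), and at 56 and 49 after LPS (3.34% and 2.92%, background 3.30% and 2.59%). All 8 shares were near their background. Any library held it at 501 members (29.8%), and 1178 members (70.2%) had none. In all, 950 members (56.6%) had no total Pol II, Ser2P or H3K36me3 peak in any library, against 35.2% of kept regions and 69.7% of gains without prior H3K4me1.

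Total Pol II differed with LPS beyond the interval outside H3K36me3 and not inside it. Among the 1178 members there, total Pol II overlapped 28 before and 74 after LPS in the control (2.38% and 6.28%), a ratio of 2.64. In the knockdown it overlapped 25 and 129 (2.12% and 11.0%), a ratio of 5.16. The differences were 3.90 points (2.43 to 5.38) and 8.83 points (7.00 to 10.7). In the control 63 of these members (5.35%) had Pol II after LPS alone and 17 (1.44%) before LPS alone, where all distal LPS H3K27ac peaks outside H3K36me3 gave 5.74% and 7.81%. In the knockdown the counts were 117 (9.93%) and 13 (1.10%), with a background of 9.65% and 6.40%. The share after LPS alone was thus near the background in both vectors, and the share before LPS alone was lower than it. Fewer of these members had Pol II before LPS at all (2.38% and 2.12%, background 12.8% and 10.9%). Inside H3K36me3, among 501 members, the share went from 32.1% to 30.9% in the control and from 29.3% to 30.5% in the knockdown, with differences of -1.20 points (-5.96 to 3.56) and 1.20 points (-3.40 to 5.79). The difference between members inside and outside H3K36me3 was not tested.

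Outside H3K36me3, Ser2P overlapped 27 and 46 of the 1178 members in the control (2.29% and 3.90%) and 29 and 85 in the knockdown (2.46% and 7.22%). It was at 32 members after LPS alone and 13 before LPS alone in the control (2.72% and 1.10%, background 2.00% and 1.18%), and at 66 and 10 in the knockdown (5.60% and 0.849%, background 6.23% and 1.15%). After LPS the knockdown exceeded the control by 3.31 points (2.09 to 4.53), with 47 members in the knockdown alone and 8 in the control alone (3.99% and 0.679%, background 5.19% and 0.548%). That difference was 4.64 points (4.21 to 5.08) over all distal peaks outside H3K36me3 and 5.60 points at kept regions there, which the members fell short of by -2.29 points (-3.71 to -0.861). For total Pol II the same difference was 4.67 points (3.05 to 6.29), with 76 and 21 members (6.45% and 1.78%, background 5.35% and 1.95%). Inside H3K36me3 it was -0.399 points (-3.72 to 2.92) for total Pol II, and for Ser2P the shares were 14.2% and 12.8% (interval of the difference -0.847 to 3.64).

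Outside H3K36me3 and with the lists as deposited, the members' LPS difference of total Pol II, in points, was larger than that of the other sets. It exceeded that of gains without prior H3K4me1 by 2.60 points (1.02 to 4.18) in the control and 4.40 points (2.36 to 6.44) in the knockdown. Those gains started from lower shares and also rose, from 0.955% to 2.26% in the control and from 0.738% to 5.17% in the knockdown. A higher share after LPS was thus not particular to the members, and the ratios given above were taken for members alone. Relative to the starting share, the rise of those gains was larger than that of the members in the knockdown and smaller in the control. These relative rises were not tested. The members' difference exceeded that of premarked sites without H3K27ac, which are narrower, by 3.68 points (2.19 to 5.18) and 8.15 points (6.29 to 10.0). Kept regions outside H3K36me3 had Pol II after LPS alone more often than members, at 9.47% and 13.8% against 5.35% and 9.93%. For Ser2P the members differed from gains without prior H3K4me1 in neither vector beyond the interval, by 0.831 points (-0.444 to 2.11) in the control and -0.153 points (-1.90 to 1.60) in the knockdown.

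**Figure D3:**
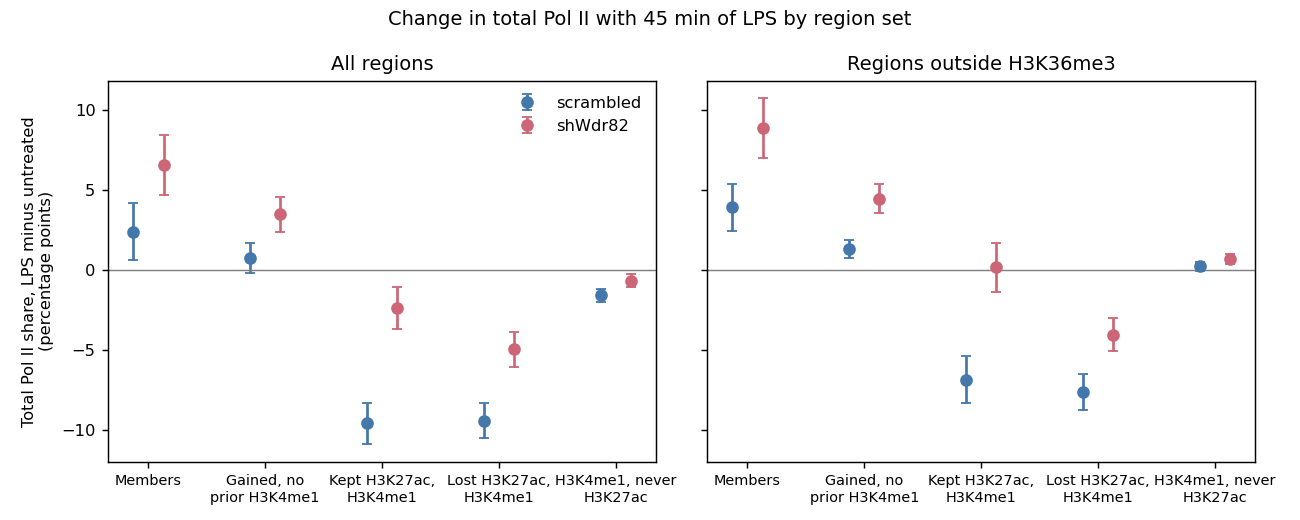
Total Pol II share after LPS minus untreated (vertical axis, percentage points) for the members and 4 other region sets in the scrambled (blue) and shWdr82 (red) libraries, for all regions and for those outside H3K36me3 of every library; bars are 95% Wald intervals that cover counting error only. The members lie above 0 in both vectors, at 2.38 and 6.55 points for all and 3.90 and 8.83 outside H3K36me3, and the kept and lost regions lie below 0 in the control with the lists as deposited; with lists of equal length the kept regions are at 1.19 points there.

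Within the members, the LPS difference of total Pol II was taken by width, H3K4me1 and H3K27ac score. In the narrowest tertile, under 2149 bp, it was -0.891 points in the control and 2.14 points in the knockdown, and both intervals included 0. In the middle tertile it was 3.94 and 8.60 points and in the widest, over 3702 bp, 4.11 and 8.93 points. Where all 4 libraries held H3K4me1 it was 4.03 points (1.94 to 6.13) in the control and 8.31 points (5.99 to 10.6) in the knockdown. Where 1 or more lacked it, the values were -1.94 points (-5.12 to 1.24) and 1.94 points (-1.13 to 5.01). By H3K27ac score it was 1.43, 1.97 and 3.75 points from the lowest to the highest tertile in the control, and 5.71, 5.19 and 8.75 points in the knockdown. The differences between classes were not tested.

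**Figure D4:**
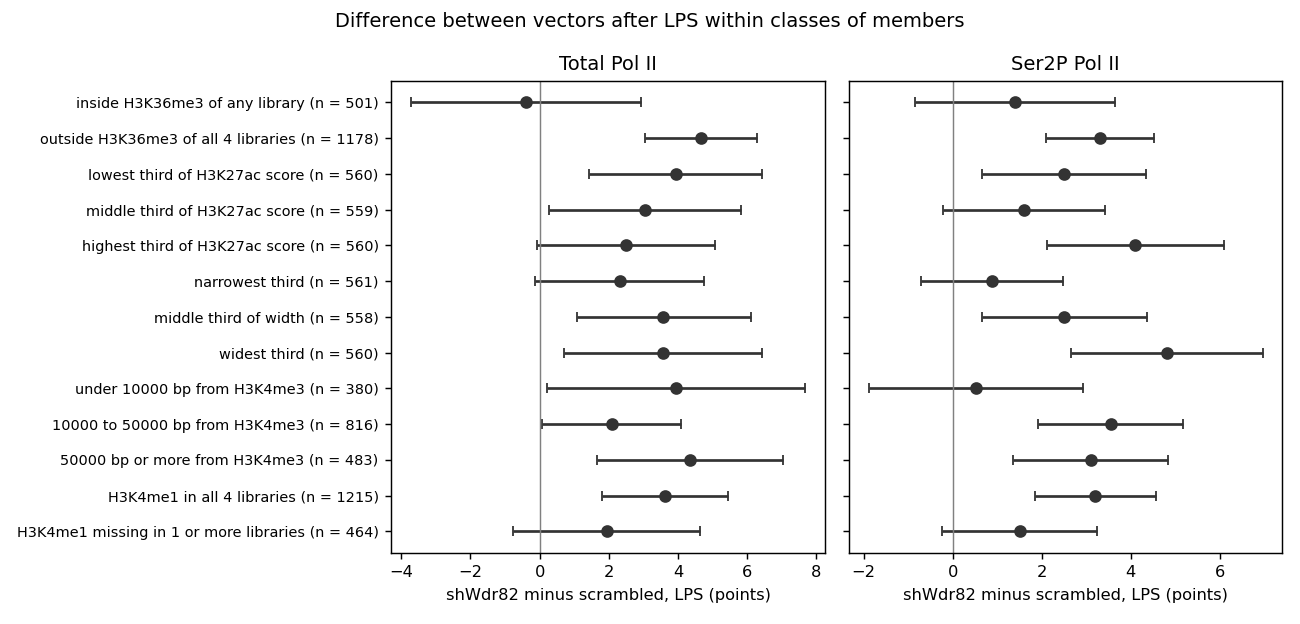
Knockdown minus scrambled share after LPS (horizontal axis, percentage points) of total Pol II and Ser2P within classes of members, with 95% Wald intervals that cover counting error only and the number of members in each class beside its name. Total Pol II is at -0.399 points inside H3K36me3 and 4.67 outside it, and Ser2P goes from 0.891 points in the narrowest to 4.82 in the widest members.

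The difference between vectors after LPS was taken in the same way. For Ser2P it was 0.891 points (-0.708 to 2.49) in the narrowest tertile, 2.51 points (0.662 to 4.36) in the middle one and 4.82 points (2.67 to 6.97) in the widest. By distance it was 0.526 points (-1.89 to 2.94) at the 380 members under 10000 bp from H3K4me3, 3.55 points (1.93 to 5.18) at the 816 members from 10000 to 50000 bp and 3.11 points (1.36 to 4.85) at the 483 members farther away. For total Pol II it was 3.95, 2.08 and 4.35 points in these distance classes, each with an interval above 0. The differences between these classes were not tested.

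Seen from the side of the prior mark, 21915 distal H3K4me1 peaks of the untreated scrambled library had no untreated H3K27ac and were either in both LPS H3K27ac lists or in neither. Of these, 2197 (10.0%, 9.63 to 10.4) had H3K27ac after LPS in both. The share was 8.03% among peaks with an H3K4me1 score of 50 to 100, 9.70% from 100 to 200, 12.6% from 200 to 500 and 15.8% from 500. It was 6.50% for peaks under 1000 bp, 9.29% from 1000 to 2000 bp, 14.8% from 2000 to 4000 bp and 22.0% at 4000 bp or more. Wider peaks have more room to overlap an H3K27ac peak, and how much of the rise this gives was not tested.

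**Figure D5:**
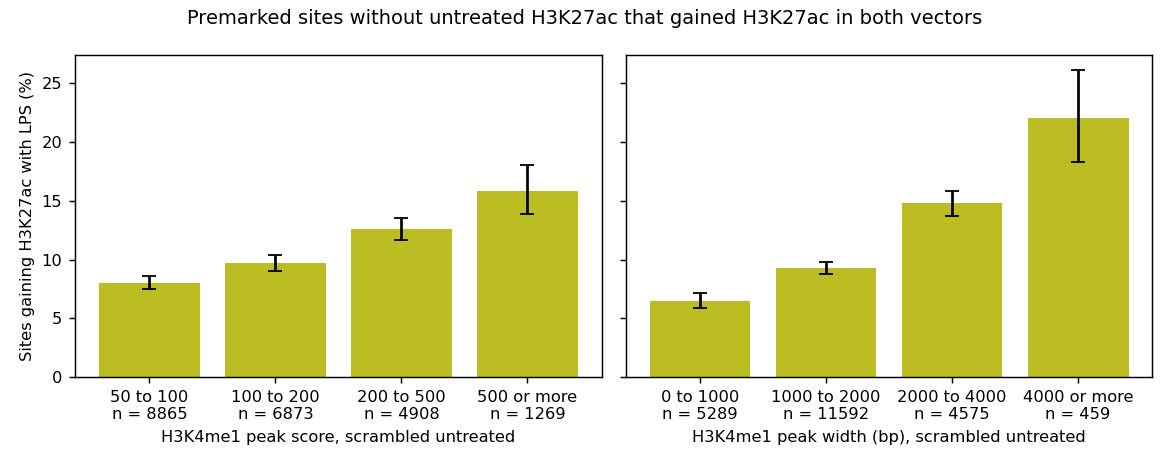
Share of distal premarked sites without untreated H3K27ac that had H3K27ac after LPS in both vectors (vertical axis, %), by score and by width of the H3K4me1 peak in the untreated scrambled library, with exact 95% intervals that cover counting error only and the number of sites under each bar. The share is 8.03% at the lowest and 15.8% at the highest scores, and 6.50% at the narrowest and 22.0% at the widest peaks.

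Before LPS in the control, total Pol II was at 9.70% of the sites that gained H3K27ac and at 8.86% of those that did not. The difference of 0.835 points had an interval that included 0 (-0.464 to 2.13). In the untreated knockdown it was at 9.42% and 8.11%, a difference of 1.31 points with an interval just above 0 (0.0330 to 2.59). After LPS in the control it was at 13.9% and 7.28%, a difference of 6.60 points (5.11 to 8.09), and in the knockdown at 17.4% and 7.43%, a difference of 10.0 points (8.37 to 11.6). These were also measured in 1000 bp about the centre of each site, which gives every site the same width. Before LPS the differences were then 0.619 points (-0.639 to 1.88) in the control and 0.848 points (-0.382 to 2.08) in the knockdown. After LPS they were 6.51 points (5.03 to 7.99) and 9.86 points (8.24 to 11.5). Ser2P before LPS in the control was at 4.32% and 4.47%, a difference of -0.149 points (-1.05 to 0.749). H3K36me3 overlapped 22.2% and 22.5% of the sites in the untreated control, a difference of -0.300 points (-2.13 to 1.53).

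The nearest H3K4me3 region, which the distance condition places at least 2500 bp away, was held by all 4 H3K4me3 libraries for 1179 members (70.2%). It was held by both LPS libraries and by neither untreated one for 12 members (0.715%, 0.370 to 1.25), which shared 9 H3K4me3 regions, and the background was 0.597%. At kept distal regions this share was 0.434%, and the difference of 0.280 points had an interval that included 0 (-0.150 to 0.710). The nearest H3K4me3 region is not necessarily the promoter that a region acts on.

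Single members show how the libraries read at a locus. Positions are on mm9, and no gene name was joined to them. The member at chr10:18799810-18830635 is 30826 bp wide and had H3K27ac scores of 3100 in both LPS libraries and none untreated, although an untreated H3K27ac peak lay 1299 bp away. H3K4me1 was present in all 4 libraries, with scores of 384, 541, 210 and 529 in the order scrambled untreated, scrambled LPS, knockdown untreated and knockdown LPS. Total Pol II was absent from both untreated libraries and had scores of 342 in the control and 2202 in the knockdown after LPS, and Ser2P scores were 57 and 3100. No H3K36me3 peak overlapped it in any library. Scores of different lists depend on the depth of each and are given side by side without a comparison.

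The member at chr9:7233073-7245777 had the same pattern, with total Pol II scores of 89 in the control and 1294 in the knockdown after LPS, Ser2P scores of 166 and 2620, and no peak of either antibody before LPS. It lay 47198 bp from the nearest H3K4me3 peak and had no H3K36me3. At chr11:23651317-23659361 total Pol II had scores of 967 and 2201 and Ser2P of 72 and 124 after LPS alone. That member had an H3K36me3 peak in the untreated scrambled library alone, with a score of 3100. At chr16:10934597-10941164 Ser2P stood at 3100 in both LPS libraries without a total Pol II peak in any library. These 4 are among the 39 members (2.32%, background 1.75%) with Ser2P in both LPS libraries and neither untreated one. The reverse was found at 11 members (0.655%, background 0.766%).

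Total Pol II after LPS alone, without Ser2P, was found at chr2:117116581-117137001, 20421 bp wide, with scores of 310 in the control and 157 in the knockdown and H3K4me1 scores of 520 to 652. At chr10:13760141-13771846 the total Pol II scores were 85 in the control and 2374 in the knockdown after LPS, and Ser2P was present in the knockdown LPS library alone, at 89. At chr5:68027883-68041691 total Pol II had scores of 915 and 1099, and Ser2P was again in the knockdown LPS library alone, at 842. This member had H3K36me3 in 3 of the 4 libraries.

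Other strongly acetylated members had no polymerase peak. The widest, chr11:78667136-78711750, spans 44615 bp, reached 3100 in both LPS H3K27ac lists and carried H3K4me1 in all 4 libraries, with no total Pol II, Ser2P or H3K36me3 peak in any. Its nearest H3K4me3 region, 22430 bp away, was among those seen after LPS alone. The next widest, chr10:96834969-96868286, of 33318 bp, likewise had H3K4me1 in all 4 libraries and no polymerase or H3K36me3 peak. At chr1:37040258-37048088 the H3K27ac scores were 3100 in both LPS lists, but the only H3K4me1 peak was that of the untreated scrambled library, with a score of 51 near the lowest reported. For such a member the premark rests on a weak call in 1 library.

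The member at chr2:116996726-117005345 had the opposite order. Total Pol II was at 3100 in both scrambled libraries and the untreated knockdown and absent in the knockdown after LPS, where Ser2P was present at 3100. H3K36me3 overlapped it in all 4 libraries. A Ser2P peak in both knockdown libraries and neither scrambled one was found at a single member (0.0596%, background 0.289%), at chr11:116257262-116259883, with scores of 80 and 70. The reverse was found at 4 members (0.238%, background 0.188%).

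The stretches with several members differed among themselves in Pol II. At chr9:51884575-51999737, with 5 members over 115163 bp, total Pol II overlapped 0 members in either untreated library, 4 in the control after LPS and 3 in the knockdown after LPS. At chr10:110628113-110697389 it overlapped all 5 members in all 4 libraries. At chr11:53994728-54067478 it overlapped 2 of 5 members, in the knockdown LPS library alone. The stretch at chr3:78873797-79004769 held 5 members, 3 further gains without prior H3K4me1 and 1 H3K4me3 region seen after LPS alone, and total Pol II overlapped 2 of its members in each LPS library and 0 in each untreated one.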

How the data were processed

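Per the submitters' processing notes, the tools were Bowtie 0.12.7 and MACS 1.4 and the build mm9. The deposited lists give start and end positions (other values set by the authors' peak calling) and a score for each peak, called in each of the 24 libraries separately. The score in the authors' deposited lists ran from 50 to 3233. Read depth is unknown, and a region with weak signal can miss the calling threshold.

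From these lists, overlaps of 1 bp or more were counted with Python 3.11.15, numpy 2.4.6 and scipy 1.17.1, after a check on simulated intervals with known overlaps. Shares carry exact 95% intervals, differences at the same regions a Wald interval for paired shares, and differences between region sets a Wald interval for independent shares. The background is the share among the 15919 distal H3K27ac peaks of the empty vector LPS library, or the part of them named. Tertiles were cut over the members.

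Members, region sets and named regions were chosen with earlier results of these data known. The named regions come from 12 of the 83 members tied at H3K27ac scores of 3100 or more in both lists, taken in order of position, up to 5 in each of 4 polymerase or H3K4me1 patterns, the 5 widest, and the 5 stretches with most members, none from chromosome 18. Alternatives were a higher score, equal numbers of peaks, a larger overlap, other distances, windows about the centre and other source libraries. The gene table at hand is on GRCm38 and no mm9 sequence was used, so gene names and motifs were not analysed here.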

Additional observations from a re-analysis of the deposited data

Results flagged for a closer look

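Some differences between vectors had opposite signs before and after LPS at the members. For total Pol II the knockdown minus control share was -1.01 points before and 3.16 points after LPS. For Ser2P it was -0.298 and 2.74 points. For H3K36me3 it was -0.893 and 0.417 points, and the LPS minus untreated share of H3K36me3 was -1.01 points in the control and 0.298 points in the knockdown. Each value comes from 1 library a group and the opposite signs were not tested over samples. The intervals of the untreated total Pol II and Ser2P differences and of all the H3K36me3 differences included 0.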

How the results depend on the processing

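Of the 78 recomputed differences at the members, 0 changed direction. With total Pol II lists of equal length, chosen after seeing the data, the difference with LPS turned from -9.58 to 1.19 points in the control and from -2.37 to 4.46 points in the knockdown at kept regions, and from -4.30 to 2.15 points in the control over all distal peaks. Taking the same number of highest-scoring peaks from each list of an antibody gave 2016 members. At these the total Pol II difference with LPS was 5.95 points in the control and 8.93 points in the knockdown. The H3K4me1 share in the untreated knockdown was 83.7%. That share was 76.6% with scores of at least 100 and 73.1% in 1000 bp about the centre, where the untreated control share of H3K36me3 was 21.4%. Alternatives chosen after seeing the data gave 22.5% for the latter with the premark taken from the untreated knockdown, and, outside H3K36me3, 8.83 points for total Pol II with LPS in the knockdown and 4.67 points for knockdown minus control after LPS. The causes were not tested, apart from what each setting leaves out. The other 74 differences and 10 shares stayed within the interval of the value reported. The number of members ran from 1222 with scores of at least 100 to 2016 with equal numbers of peaks.

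No paired analysis was possible because each group has 1 library, and leaving out a library was not possible for the same reason. Motif shares and members near LPS-response genes were planned and not run. Unknown depth limits every share, since a peak just under the calling threshold counts as absent.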
